A study of Mus musculus with 6 samples.

Results

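The genes described here are 10 genes of the Hippo pathway, picked by symbol with no threshold on their values, out of the 52636 genes in the count table. They are the coactivator genes Yap1 and Wwtr1, which encode YAP and TAZ, the DNA binding partners Tead1, Tead2, Tead3 and Tead4, the kinases Lats1 and Lats2, and the target genes Amotl2 and Ankrd1. RNA of cultured J110 and SSM3 cells, both mouse mammary cancer cell lines, was sequenced from its 3′ ends in 3 biological replicates of each line. J110 cells came from mice with an AIB1 cDNA transgene driven by the MMTV LTR, and SSM3 cells from mammary tumours of 129SvEv mice. Each line is a single tumour line and the lines were kept in different media, serum and CO2 levels, so line, strain, transgene and culture cannot be told apart.

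YAP and TAZ do not bind DNA themselves and act on transcription through the TEAD factors. The kinases MST1 and MST2 activate LATS1 and LATS2, which phosphorylate YAP and TAZ, so that they are held in the cytoplasm or degraded. When the kinases are inactive, as in spread cells at low density, YAP and TAZ enter the nucleus and induce genes such as Ankrd1, Ccn1, Ccn2 and Amotl2. In mammary epithelium they are known from basal and stem-like cells, and TAZ from aggressive breast cancers. Since the control acts largely on the proteins, the RNA counts below give the amount of each transcript and not the activity of the pathway.

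The letters CATTCC, the core of the site that TEAD factors bind, were searched on both strands of RefSeq promoters (GRCm38.p6, from 250 bases before to 50 bases after the transcript start). Promoters were at hand for 8 of the 10 genes, all but Tead1 and Tead4. The letters were present in 6 of these 8, namely Yap1, Wwtr1, Tead3, Lats2, Amotl2 and Ankrd1, and absent from Tead2 and Lats1. Of all 27025 genes with a promoter, 16.6% held them. A gene can have more than 1 promoter, and by promoter the share was 66.7% of the 12 searched for these genes, against 14.7% of all 32851. A match is a stretch of letters and not a binding site shown in these cells. The windows below are those of the genes with the largest changes among the 10, described further on, with Yap1 beside them. Each line gives 30 bases of the coding strand, 5′ to 3′, with CATTCC or its reverse complement GGAATG in capitals. Distances are to the RefSeq start. The gene bounds given further on are those of GENCODE, whose first start of Ankrd1 and of Amotl2 lies farther upstream, so these 3 windows fall inside those bounds.
Ankrd1, chr19:36120037-36120066, minus strand, 210 bases before the start: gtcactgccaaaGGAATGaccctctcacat
Ankrd1, chr19:36119950-36119979, minus strand, 123 bases before the start: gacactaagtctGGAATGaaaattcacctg
Amotl2, chr9:102717727-102717756, plus strand, 65 bases before the start: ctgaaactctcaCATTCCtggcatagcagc
Wwtr1, chr3:57576029-57576058, minus strand, 136 bases before the start: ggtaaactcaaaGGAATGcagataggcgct
Yap1, chr9:8004720-8004749, minus strand, 141 bases before the start: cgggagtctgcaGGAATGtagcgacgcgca

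Total counts were between 5209740 and 5416305 in libraries labelled J110 and between 4200785 and 4792941 in libraries labelled SSM3. Counts on Ncoa3, the gene of AIB1, were not higher in libraries labelled J110 (mean 21.2 CPM, counts scaled to library size and TMM, against 39.9 CPM). This value does not check the labels, because the methods do not give the 3′ end of the AIB1 cDNA. J110 and SSM3 are used here as labelled. The 8 epithelial markers looked at summed to between 2677 and 2766 CPM in J110 and to between 12625 and 13900.0 CPM in SSM3. The mean of Epcam was 0.681 CPM in J110, with 7 of its 10 counts in replicate 3, but 506.5 CPM in SSM3 (log2 fold change 9.52, or 10.63 without J110 replicate 3), and that of Cdh1, which encodes E-cadherin, 4.02 CPM but 1374 CPM. In J110 Cldn7 was at the floor of 3 counts per library. Krt8 had a mean of 1275 CPM in J110 but 2270.0 CPM in SSM3. Krt18 ran the other way, at 1430.0 CPM against 970.0 CPM, a log2 fold change of -0.56 (adjusted p = 6.61e-07). Of the markers of other cells, 4 of 7 fibroblast and 2 of 5 endothelial genes were at the floor in J110 and 5 of 7 and 5 of 5 in SSM3. Of 5 leukocyte genes 2 and 3 were at the floor in J110 and SSM3, and of 6 myoepithelial or basal genes 5 and 2. Their summed levels reached 181 CPM for the endothelial list in J110, almost all of it Cdh5, and 1479 CPM for the fibroblast list in SSM3, almost all of it Dcn. The part of these markers in the results below was not tested.

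SSM3 replicate 2 and J110 replicate 3 held low counts on many genes typical of the other line. In SSM3 replicate 2, 42 of 43 genes that were high in J110 and near 0 in SSM3 had a count, at 0.422% of their J110 level in sum, against 0.110% and 0.0812% in the other two SSM3 libraries. In J110 replicate 3, 41 of 51 such genes of SSM3 had a count, at 0.257%. These genes were chosen for a mean of at least 100 CPM in one line and a median of at most 3 counts in the other, which limits the shares. Ankrd1, Axl and Igfbp3 fit the same rule, and Ccn2, with 1, 7 and 4 counts in SSM3, narrowly misses it. The source of these counts was not tested.

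All 10 genes passed the filter on low counts. In the quasi-likelihood test of edgeR, 7 were lower in SSM3, 1 was higher and 2 did not pass the adjusted p threshold of 0.05. The share of 80.0% is close to that of all genes, since 77.9% of the 12284 genes tested passed. By direction, 39.2% of all genes passed as lower and 38.6% as higher in SSM3. With glmTreat of edgeR, which asks for a change of more than 2-fold, the same 7 genes were lower and the same gene higher, where 34.8% of all genes passed, 17.7% as lower and 17% as higher. The libraries of the lines did not overlap in these 8 genes, against 79.6% of all genes. The median log2 fold change, SSM3 against J110, of the 10 genes was -1.53, and that of all genes tested was -0.014.

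**Figure D1:**
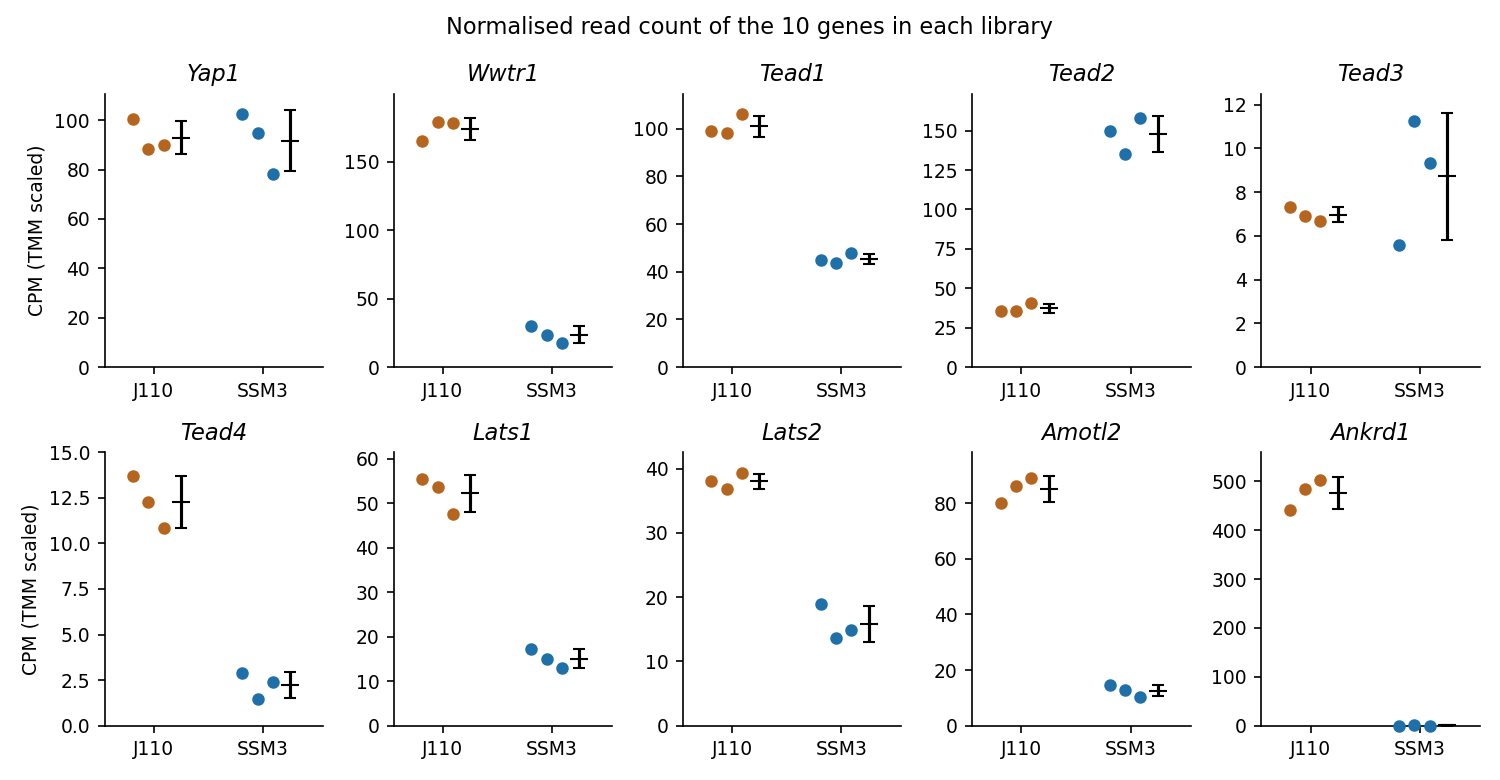
Normalised read counts (CPM after TMM scaling, linear axes from 0, each gene on its own scale) of the 10 genes in 3 libraries of J110 (brown points) and 3 of SSM3 (blue points), with the mean and SD in black. The lines overlap for Yap1 and Tead3, Tead2 is higher in SSM3, and the other 7 genes are lower in SSM3, where Ankrd1 has a mean of 0.491 CPM.

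Of the coactivators, Wwtr1 was lower in SSM3 and Yap1 did not pass the test. Yap1 (ENSMUSG00000053110, chromosome 9 of mm10 from 7931999 to 8004596, minus strand) had 522, 446 and 430 counts in the J110 libraries against 460, 446 and 392 in SSM3. The libraries of the lines overlapped, with means of 92.9 ± 6.78 CPM and 91.7 ± 12.5 CPM (mean ± SD, n = 3 each). The log2 fold change of Yap1 was -0.02 (standard error, SE, 0.10, adjusted p = 0.863), with a 95% interval from -0.24 to 0.20. Its sign depended on the scaling, since library size alone, without TMM, gave 0.16 (adjusted p = 0.197).

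Wwtr1 (ENSMUSG00000027803, chromosome 3 from 57455649 to 57575910, minus strand) had 856, 906 and 855 counts in the J110 libraries against 136, 110 and 90 in SSM3. Every SSM3 library was far below every J110 library, and the means were 174 ± 7.97 CPM in J110 and 23.9 ± 6.20 CPM in SSM3 (mean ± SD, n = 3 each). The log2 fold change was -2.88 (SE 0.13, adjusted p = 4.89e-12), or 7.34-fold lower in SSM3. The SSM3 libraries held from 10.3% to 17.4% of the J110 mean.

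The balance of the coactivator transcripts was also compared within each library, where scaling between libraries has no part. The log2 ratio of Wwtr1 to Yap1 counts was 0.91 ± 0.17 in J110 and -1.96 ± 0.19 in SSM3 (mean ± SD, n = 3 each), a difference of -2.87, or 7.31-fold. The ratio was above 0 in 3 of 3 J110 libraries and below 0 in 3 of 3 SSM3 libraries (p = 0.1 in an exact two-sided permutation test, the smallest that 3 libraries against 3 allow). Yap1 accordingly took 34.8% ± 2.70 of the summed counts of both genes in J110 and 79.6% ± 2.15 in SSM3 (mean ± SD, n = 3 each). A read from the 3′ end stands for about a single transcript, so counts were not divided by length. Capture may differ between genes, so the ratio was compared between the lines and not read as a ratio of molecules.

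The TEAD genes encode closely related factors that bind the same DNA site, and their makeup differed between the lines. Tead1 (ENSMUSG00000055320, chromosome 7 from 112679318 to 112906807, plus strand) had 513, 497 and 509 counts in the J110 libraries against 201, 206 and 240 in SSM3. It was lower in every SSM3 library, at 45.4 ± 2.09 CPM against 101 ± 4.41 CPM (mean ± SD, n = 3 each), with a log2 fold change of -1.15 (SE 0.088, adjusted p = 3.98e-09). Tead2 (ENSMUSG00000030796, chromosome 7 from 45215753 to 45233644, plus strand), best known from the early embryo, went the other way, with 186, 181 and 195 counts in the J110 libraries against 672, 638 and 794 in SSM3. Its means were 37.4 ± 2.81 CPM in J110 and 148 ± 11.4 CPM in SSM3 (mean ± SD, n = 3 each), and its log2 fold change was 1.98 (SE 0.096, adjusted p = 1.12e-11), or 3.95-fold higher in SSM3.

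Tead4 (ENSMUSG00000030353, chromosome 6 from 128224288 to 128300823, minus strand), required for the trophectoderm, had 71, 62 and 52 counts in the J110 libraries against 13, 7 and 12 in SSM3. The libraries did not overlap, and the log2 fold change of Tead4 was -2.44 (SE 0.27, adjusted p = 3.47e-07). Tead3 (ENSMUSG00000002249, chromosome 17 from 28331671 to 28350817, minus strand), known from the placenta, had 38, 35 and 32 counts in the J110 libraries against 25, 53 and 47 in SSM3, which overlapped. Its log2 fold change was 0.33 (SE 0.25, adjusted p = 0.242), with a 95% interval from -0.20 to 0.86. Leaving out SSM3 replicate 1, the library with the fewest Tead3 counts, gave a log2 fold change of 0.56 with an adjusted p of 0.0312.

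Summed over the 4 TEAD genes, J110 libraries held 808, 775 and 788 counts and SSM3 libraries 911, 904 and 1093 counts. The log2 of the summed CPM was 7.30 ± 0.053 in J110 and 7.67 ± 0.090 in SSM3 (mean ± SD, n = 3 each), higher in SSM3 by 0.37, or 1.29-fold, with no overlap. With library size alone the difference was 0.55. Within that total the share of Tead1 was 64.1% ± 0.554 in J110 and 22.3% ± 0.452 in SSM3, and that of Tead2 was 23.7% ± 0.916 in J110 and 72.3% ± 1.62 in SSM3 (mean ± SD, n = 3 each). Tead4 took 7.79% ± 1.11 in J110 and 1.10% ± 0.326 in SSM3, while Tead3 took 4.43% ± 0.330 and 4.30% ± 1.56 (mean ± SD, n = 3 each). Tead1 thus had the most counts of the 4 genes in every J110 library and Tead2 in every SSM3 library. The sum and the shares of Tead1, Tead2 and Tead4 each separated the lines (p = 0.1 in an exact two-sided permutation test, the smallest possible), and that of Tead3 did not (exact p = 0.9). These are 4 shares of a single total and therefore not independent of each other.

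**Figure D2:**
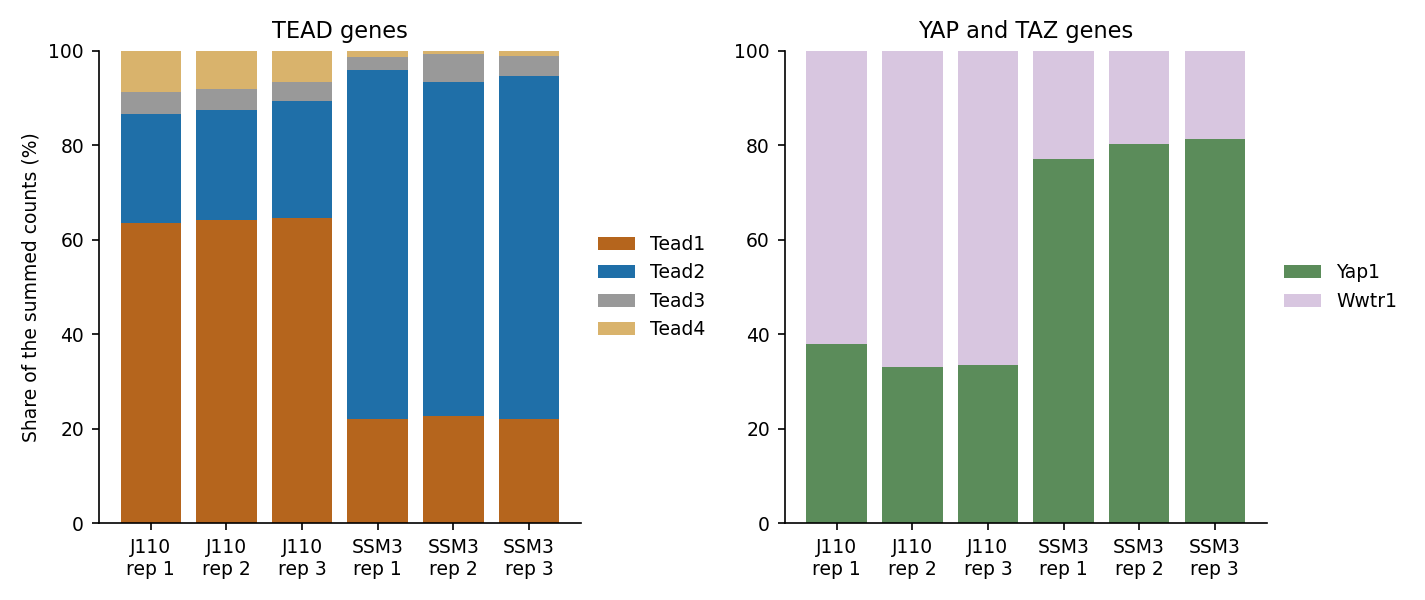
Share of summed counts (%, linear axis) in each library, for the 4 TEAD genes on the left and for Yap1 and Wwtr1 on the right. In the 3 J110 libraries Tead1 and Wwtr1 take the largest part, and in the 3 SSM3 libraries Tead2 and Yap1 do, with little difference between replicates.

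Lats1 and Lats2, which encode the kinases that phosphorylate YAP and TAZ, were both lower in SSM3. Lats1 (ENSMUSG00000040021, chromosome 10 from 7681214 to 7716460, plus strand) had 288, 271 and 228 counts in the J110 libraries against 77, 71 and 65 in SSM3. This was 52.2 ± 4.15 CPM against 15.1 ± 2.11 CPM (mean ± SD, n = 3 each), for a log2 fold change of -1.80 (SE 0.13, adjusted p = 2.54e-09). Lats2 (ENSMUSG00000021959, chromosome 14 from 57689662 to 57758388, minus strand), itself a gene that YAP and TAZ induce, had 197, 186 and 188 counts in the J110 libraries against 85, 64 and 75 in SSM3. Its log2 fold change was -1.27 (SE 0.14, adjusted p = 4.10e-07). Lats2 shares exons with Gm49361 on the same strand, which had from 39 to 69 counts in J110 and from 23 to 35 in SSM3, so its value is uncertain.

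The Lats2 to Lats1 log2 ratio was -0.46 ± 0.15 in J110 and 0.066 ± 0.19 in SSM3 (mean ± SD, n = 3 each), higher in SSM3 by 0.52 with no overlap (p = 0.1 in an exact two-sided permutation test, the smallest possible). Lats2 and Tead1 had the smallest changes of the 8 genes called, and their call beyond 2-fold was the least firm. It had an adjusted p of 0.0309 for Lats2 and 0.0413 for Tead1, of 0.258 and 0.716 with library size alone, and of 0.0585 and 0.122 when every gene with a count was tested. Without J110 replicate 3 these were 0.0602 and 0.0809, without SSM3 replicate 2 they were 0.133 and 0.109, and without both libraries 0.203 and 0.193. Without SSM3 replicate 1 the call of Tead1 (adjusted p = 0.0809) and without SSM3 replicate 3 that of Lats2 (adjusted p = 0.0711) was lost.

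Both target genes were lower in SSM3. Ankrd1 (ENSMUSG00000024803, chromosome 19 from 36111961 to 36120099, minus strand) encodes an ankyrin repeat protein of muscle and is widely used as a readout of YAP and TAZ. It had 2289, 2446 and 2413 counts in the J110 libraries against 0, 6 and 1 in SSM3. J110 thus held 476 ± 31.8 CPM and SSM3 0.491 ± 0.685 CPM (mean ± SD, n = 3 each). The ratio of the summed counts was 966, with exact 95% limits of 469 and 2404 that cover counting error only. The fitted log2 fold change was -9.84 (SE 0.22, adjusted p = 8.70e-16), the largest of the 10 genes. Of the 7 SSM3 counts, 6 fell in replicate 2, at 0.268% of the J110 mean. The source of these counts was not tested. Ankrd1 had a log2 fold change of -11.83 without SSM3 replicate 2, and without replicate 1 or 3 it was -9.32 or -9.45.

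Amotl2 (ENSMUSG00000032531, chromosome 9 from 102716672 to 102733418, plus strand) encodes an angiomotin, which binds YAP and keeps it out of the nucleus, and is also induced by it. Its counts were 415, 436 and 427 in J110 and 65, 61 and 52 in SSM3. The means were 85.1 ± 4.65 CPM and 12.6 ± 2.09 CPM (mean ± SD, n = 3 each), for a log2 fold change of -2.76 (SE 0.12, adjusted p = 3.56e-12), or 6.78-fold lower in SSM3. Unlike Ankrd1, Amotl2 was still counted in every SSM3 library, at 12.2% or more of the J110 mean.

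**Figure D3:**
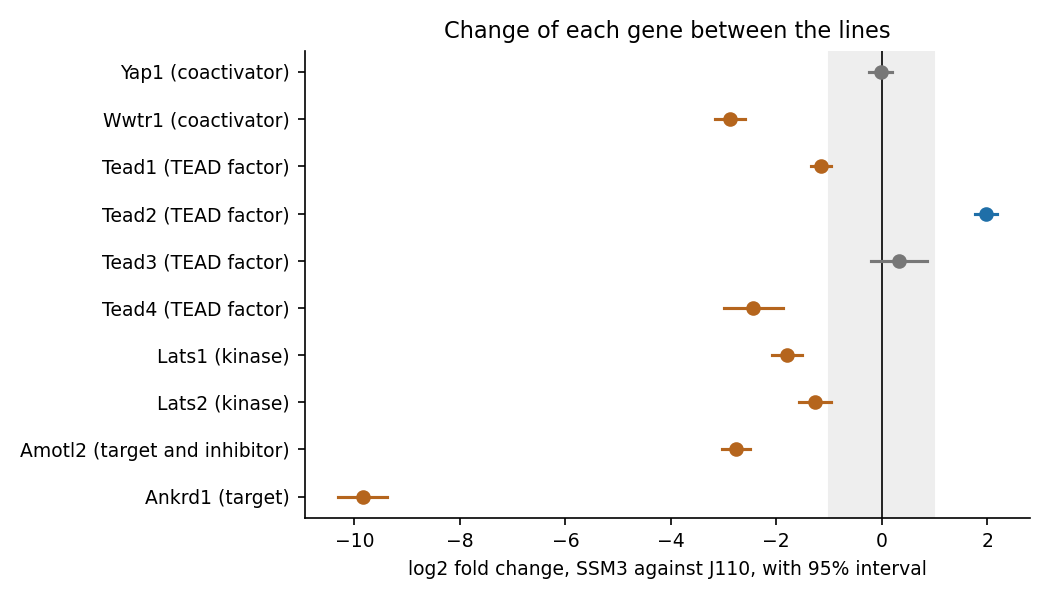
Log2 fold change, SSM3 against J110, of each of the 10 genes (points) with its 95% interval from edgeR's quasi-likelihood fit (lines), and the range within 2-fold in grey. Brown marks genes lower in SSM3, blue the gene higher in SSM3 (Tead2) and grey the genes that did not pass (Yap1 and Tead3), and Ankrd1 at -9.84 lies far from the other genes.

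Of 27 other genes upstream of YAP and TAZ, including the Vgll cofactors of TEAD, 22 could be tested, and 13 were lower in SSM3, 7 were higher and 2 did not pass. This is 90.9% called and 59.1% lower, beside 77.9% and 39.2% of all genes. Beyond 2-fold, 7 were lower and 2 higher, which is 40.9% of those tested where 34.8% of all genes passed. Their median log2 fold change was -0.59. Taok3, a kinase that activates the pathway, had 627, 647 and 638 counts in the J110 libraries against 35, 31 and 42 in SSM3, a log2 fold change of -4.06 (SE 0.12, adjusted p = 1.47e-14). Frmd6, a FERM domain protein of the cell cortex, was lower by 3.37 on the log2 scale (adjusted p = 4.08e-12), with 20, 25 and 31 counts in SSM3. Amot, the angiomotin related to Amotl2, was lower too, with 9, 9 and 10 counts in SSM3 and a log2 fold change of -3.15 (adjusted p = 2.17e-09). Of the partners of the kinases, named after their values were seen, the adaptors Sav1, Mob1a and Mob1b had log2 fold changes of -1.52, -1.52 and -1.66, each called beyond 2-fold. Of the kinase genes upstream of Lats1 and Lats2, also named after their values were seen, Stk4 (MST1) was higher in SSM3 at 0.88 (adjusted p = 2.64e-06) and Stk3 (MST2) was lower at -0.63 (adjusted p = 4.37e-04), neither of them beyond 2-fold.

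Other upstream genes were higher in SSM3. Nf2, which encodes the tumour suppressor Merlin, had 147, 148 and 129 counts in the J110 libraries against 479, 400 and 609 in SSM3, a log2 fold change of 1.89 (SE 0.12, adjusted p = 5.55e-10). Vgll1, a cofactor that competes with YAP and TAZ for TEAD factors, had no count in J110 and 107, 110 and 125 counts in SSM3, or 24.0 ± 0.775 CPM (SD, n = 3). Against the floor of 3 counts per library Vgll1 in SSM3 was at least 38.4-fold higher (adjusted p = 9.46e-11). This floor is a set bound and not a limit estimated from the absence of counts in J110. Among the most counted upstream genes the changes were small. Amotl1 changed by 0.70 (adjusted p = 2.21e-06) and Taok1 by -0.35 (adjusted p = 6.57e-04) on the log2 scale, while Map4k4 changed by 0.0051 (SE 0.085, adjusted p = 0.958). Map4k4 and Map4k3, at 0.024 (adjusted p = 0.908), were the 2 genes that did not pass. Map4k1, Fat4, Dchs1, Vgll2 and Vgll3 did not pass the filter on low counts. Map4k1, with no count in J110 and 10, 8 and 10 counts in SSM3, entered 6 alternative fits and was called higher in SSM3 in each of them (adjusted p from 1.62e-07 to 8.54e-04). When every gene with a count was tested, Fat4, with 1, 4 and 2 counts in J110 and none in SSM3, was called lower (adjusted p = 0.0356) and Vgll3 was not called (adjusted p = 0.0721), while Dchs1 and Vgll2 had no count in any library.

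Of 20 further genes known to be induced by YAP and TAZ, 18 could be tested, and 14 were lower in SSM3, 3 were higher and 1 did not pass. The share called was 94.4% and the share lower 77.8%, beside 77.9% and 39.2% of all genes. Beyond 2-fold, 11 were lower and 3 higher, or 77.8% of those tested, beside 34.8% of all genes. Library size alone gave 13 lower and 4 higher. The least firm of the 14 was Gadd45b, named after its values were seen, with 98, 101 and 59 counts in the J110 libraries against 53, 41 and 73 in SSM3, which overlapped. Its log2 fold change was -0.55 (adjusted p = 0.029), and it was called in 10 of 15 alternatives. The call was lost with library size alone and without J110 replicate 1 or 2 or SSM3 replicate 1 or 2 (adjusted p up to 0.159). The median log2 fold change of the target list was -4.28, and -3.53 with Foxf2 and Tgfb2, both at the floor in SSM3, set to their lower bounds. Ccn2, a matricellular growth factor, had 2508, 2104 and 1839 counts in the J110 libraries against 1, 7 and 4 in SSM3, a log2 fold change of -8.94 (SE 0.20, adjusted p = 7.90e-16). Axl, a receptor tyrosine kinase, had 1376, 1189 and 1286 counts in the J110 libraries against 2, 6 and 2 in SSM3, a log2 fold change of -8.46 (SE 0.19, adjusted p = 7.01e-16). As with Ankrd1, SSM3 replicate 2 had the most of these counts, at 0.347% of the J110 mean for Ccn2 and 0.497% for Axl, and without it the log2 fold changes were -9.60 and -9.16.

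Igfbp3, which binds insulin-like growth factors, had 8, 2 and 3 counts in SSM3 and a log2 fold change of -6.78 (SE 0.21, adjusted p = 3.21e-14), or -7.58 without SSM3 replicate 1. Foxf2, a forkhead factor, had 60, 40 and 51 counts in J110 and none in SSM3, at least 15.0-fold lower. It was named by its fitted value. By this bound it would also rank below Ptpn14 (74.9-fold lower), Nt5e (44.6-fold lower), Ccn1 (42.5-fold lower) and Nuak2 (19.6-fold higher), all named after their values were seen. Crim1 had 447, 369 and 520 counts in the J110 libraries against 1, 3 and 4 in SSM3, but it shares exons on the opposite strand with Fez2, whose counts of 438, 367 and 450 in J110 were close to those of Crim1. In SSM3 Fez2 had 43, 37 and 33 counts, well above those of Crim1. Whether the genes share reads is not known, so the Crim1 log2 fold change of -7.25 is uncertain. Myof, a membrane repair protein and the most counted gene of the list, was lower by 0.83 on the log2 scale (adjusted p = 1.97e-08). Ccn1, named after its values were seen as a common companion of Ccn2, had 1021, 1047 and 914 counts in the J110 libraries against 18, 31 and 17 in SSM3, a log2 fold change of -5.41 (adjusted p = 7.20e-15).

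The 3 target genes higher in SSM3, named after their values were seen, were Nuak2, Rbms3 and F3. Nuak2, a kinase related to AMPK, had 8, 12 and 9 counts in the J110 libraries against 165, 179 and 200 in SSM3, a log2 fold change of 4.29 (adjusted p = 4.57e-12). Rbms3, an RNA binding protein, had a log2 fold change of 3.05 (adjusted p = 1.06e-12). F3, which encodes tissue factor, had a log2 fold change of 2.06 (SE 0.40, adjusted p = 1.66e-04), with 209, 230 and 56 counts in SSM3, an uneven set in which replicate 3 equalled the highest J110 library by count. Arhgef17 was the gene that did not pass (log2 fold change 0.27, adjusted p = 0.0579), but it was called higher in SSM3 with library size alone (adjusted p = 0.00361) and with limma-voom. Fjx1 and Ccdc80 did not pass the filter on low counts. When every gene with a count was tested, Fjx1, with 4, 2 and 4 counts in J110 and none in SSM3, was called lower (adjusted p = 0.00852) and Ccdc80 was not called (adjusted p = 0.98). In promoters, CATTCC was found in 5 of 13 target genes and 6 of 24 upstream genes for which one was at hand, or 38.5% and 25.0%, beside 16.6% of all genes with a promoter. By promoter the shares were 35.7% and 22.2%, beside 14.7%.

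**Figure D4:**
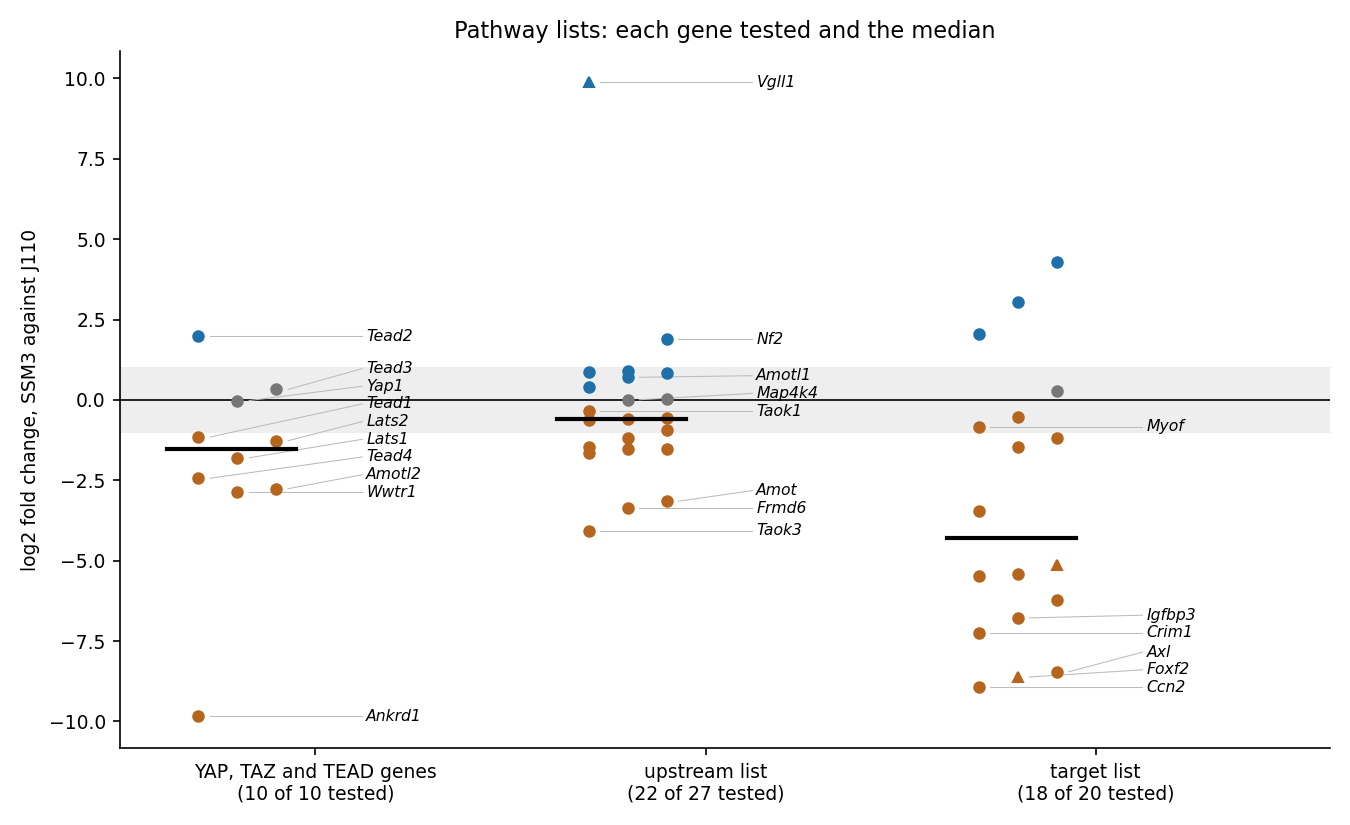
Log2 fold change, SSM3 against J110, of each tested gene in 3 lists, with the list's median as a black bar, the range within 2-fold in grey, and triangles for genes at the floor in either line, whose fitted values are no measure of size. Colours mark genes lower (brown) or higher (blue) in SSM3 or not called (grey), and the median lies at -1.53 for the 10 genes, -0.59 for the upstream list and -4.28 for the target list.

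The genes whose profile over the 6 libraries was nearest to that of each coactivator were found by the root mean square difference of log2 CPM after centring each gene on its mean. For Wwtr1 these were Zzef1 (0.0410), Dpy19l1 (0.0756) and Dlk2 (0.0863), and for Yap1 they were Sike1 (0.0509), Ramac (0.0542) and Rbm15 (0.0602). With 2 lines of 3 libraries the measure reads mostly the difference between the lines.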

How the data were processed

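RNA of J110 and SSM3 cells was sequenced with the QuantSeq 3′ kit (n = 3 biological replicates of each line, all 6 used). Per the methods and the labels, the authors trimmed reads with cutadapt (2.1), mapped them to mm10 with HISAT2 (2.0.4), counted them with featureCounts and deposited raw counts per Ensembl gene, without normalisation. The strand setting and the handling of reads on several genes are not given in the sources used here. Symbols and coordinates came from GENCODE M21 (GRCm38), which named 52403 of 52636 identifiers.

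Groups and replicates follow the sample titles. Low genes were removed by filterByExpr, libraries were scaled by TMM, and lines were compared by the quasi-likelihood F-test in edgeR (4.0.16, R 4.3.3), with Benjamini-Hochberg adjustment over all 12284 genes tested and a threshold of 0.05. Standard errors are the log2 fold change divided by the square root of F. Ratios within a library used a prior count of 0.5. Over all genes the median log2 fold change was -0.014 with TMM and 0.16 with library size alone. A count of 3, the floor, corresponds to between 0.578 and 0.668 CPM, and such limits cover counting error only. Replicates of a line differed by more than sampling noise (chi-square per degree of freedom from 2.29 to 6.01). The p-values measure the spread between cultures of a single line. On simulated counts of 12284 genes, of which 11958 passed the filter, the test recovered 86.1% of changes of 1 and 97.8% of changes of 2 on the log2 scale, and 16 of its 199 calls were false, more than the threshold of 0.05 allows on average. The simulation changed 200 genes, in both directions, with a single spread between replicates for all genes. In the data 77.9% of the genes tested were called, so these rates may differ here.

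The 10 genes and the lists were chosen with earlier results of these data known. Named list genes are the 5 with the largest change among those called with at least 5 CPM in either line, and the 3 with the highest mean. Alternatives were DESeq2 (1.42.0), limma-voom (3.58.1), other scalings and filters, leaving out libraries, and the replicate number as a block. A further property of the SSM3 line is not reported here.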

Additional observations from a re-analysis of the deposited data

How the results depend on the processing

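The 8 calls among the 10 genes had the same direction and stayed past the threshold under every alternative in which the gene was tested. Requiring at least 10 counts in every library removed Tead4 and Ankrd1 by construction and left 6 calls, and without SSM3 replicate 1 Tead3 made a ninth. Beyond 2-fold, between 6 and 8 genes were called. Yap1, which was not called, changed sign with library size alone (0.16), when a single count anywhere sufficed to test a gene (0.00043), and between -0.10 and 0.087 when each library was left out in turn. Map4k4, also not called, became -0.012 with at least 10 counts in every library, and lay between -0.067 and 0.084 with libraries left out, -0.058 without J110 replicate 3 and SSM3 replicate 2. The difference in the Tead3 share lay between -1.09 and 0.65 percentage points with libraries left out. Calls in the upstream list fell from 20 to 9 beyond 2-fold, and otherwise lay between 18 and 22. In the target list they fell from 17 to 8 with at least 10 counts in every library, which leaves 9 genes to test, and lay between 14 and 18 otherwise. Same-numbered libraries of the lines deviated together only weakly (correlations of 0.012, 0.015 and 0.027). Each of these values was above those of all other pairs, which lay between -0.021 and 0.0076. Whether the numbers pair the samples was not tested. With the replicate block 9481 genes were called in place of 9566, and 8 of the 10 genes. Depth limits the genes near 0 in SSM3, such as Ankrd1, whose fold change rests on 7 counts.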
